A study of Mus musculus with 2 samples.

Results

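Glutathione transferases couple the tripeptide glutathione to reactive, electron-poor compounds. The values here describe 10 of these genes in mouse RNA labelled as keratinocyte RNA: Gsta1, Gsta2, Gsta3 and Gsta4 of the alpha class, Gstm1 and Gstm5 of the mu class, Gstp1 and Gstp2 of the pi class, Gsto1 of the omega class and Gstk1 of the kappa class. The genes were taken by name, and their probes were all array probes outside the controls whose RefSeq accession belongs to a gene of that name. This gave 14 of 55678 probes, for 10 of the 20144 genes that could be named. The labels give the cells as P3 primary keratinocytes, the main epithelial cells of the epidermis, but the markers below show RNA of other tissues as well. The control group carried the Rac3-KO genotype, and the other group the Rac1Rac3-DKO genotype, so both lacked Rac3 by label and only the latter also lacked Rac1. Rac1 and Rac3 are small GTPases that relay signals to the actin cytoskeleton. The driver of the deletion, the sex and number of animals and the treatment of the cells are not given in the sources used here. Each genotype was represented by 1 array, so the spread between samples is unknown and the genotypes were not tested against each other.

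Conjugation by these enzymes is a main route by which cells clear electrophiles, lipid peroxidation products and many drugs. Several alpha, mu and pi genes are known targets of NRF2, a transcription factor that binds antioxidant response elements when the cell meets oxidants or electrophiles. The alpha, mu and pi genes lie in clusters of duplicated genes, and some copies are so alike in sequence that a hybridisation probe may bind transcripts of several copies.

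Levels are given as the log2 processed signal minus the 75th percentile of that array, and differences as the DKO-labelled array minus the Rac3-KO-labelled array. The 75th percentile of the processed signal was 705 in the Rac3-KO-labelled sample and 354 in the other. Before this scaling, 7 spike-in probes differed by 1.08 and the 75th percentile by -0.99 (log2). The error beside each difference is the scanner software's own signal error, which holds no variation between cultures or animals. Between probes of the same gene the differences had a root mean square SD of 0.38 over 3578 genes. The brighter Rac1 probe differed by 0.28 and the other by -0.12, and the Rac3 probe, with signals of 99.8 and 59.1, was well above background on both arrays. The arrays therefore do not show the labelled deletions, and whether these probes lie inside the deleted parts is not known here. Keratinocyte markers were measured on both arrays, but their summed level, in multiples of the 75th percentile, was 959 in the Rac3-KO-labelled sample and 264 in the DKO-labelled one. Markers of muscle, fibroblasts and blood were bright on both, so each sample held RNA of other tissues. In such bulk RNA, fewer cells of a type and less RNA per cell cannot be told apart.

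The members were spread widely, from -3.49 for Gsta2 to 1.14 for Gstm1 on the log2 scale. Of the 10 genes, 9 were well above background on both arrays. Of these 9, Gsta1 and Gsta2 had DKO-labelled levels lower by 2-fold or more, which held for 6.62% of all 14145 genes measured on both arrays. A single member, Gstm1, was higher by 2-fold or more after percentile scaling (it was lower on the spike-in scale), as were 7.71% of all genes. The other 6 lay within 2-fold. With a 1.5-fold limit 4 members were lower, beside 16.5% of all genes, and 1 was higher, beside 18.2%. With a 3-fold limit 2 were lower, beside 2.23% of all genes, and 0 higher, beside 2.29%. The median difference of the 9 was -0.48, against -0.01 for all genes. With so few members, these counts describe the genes one by one and show nothing particular to the group. For Gstm5, Gstp1 and Gstp2 the difference was smaller than 2 times the signal error.

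**Figure D1:**
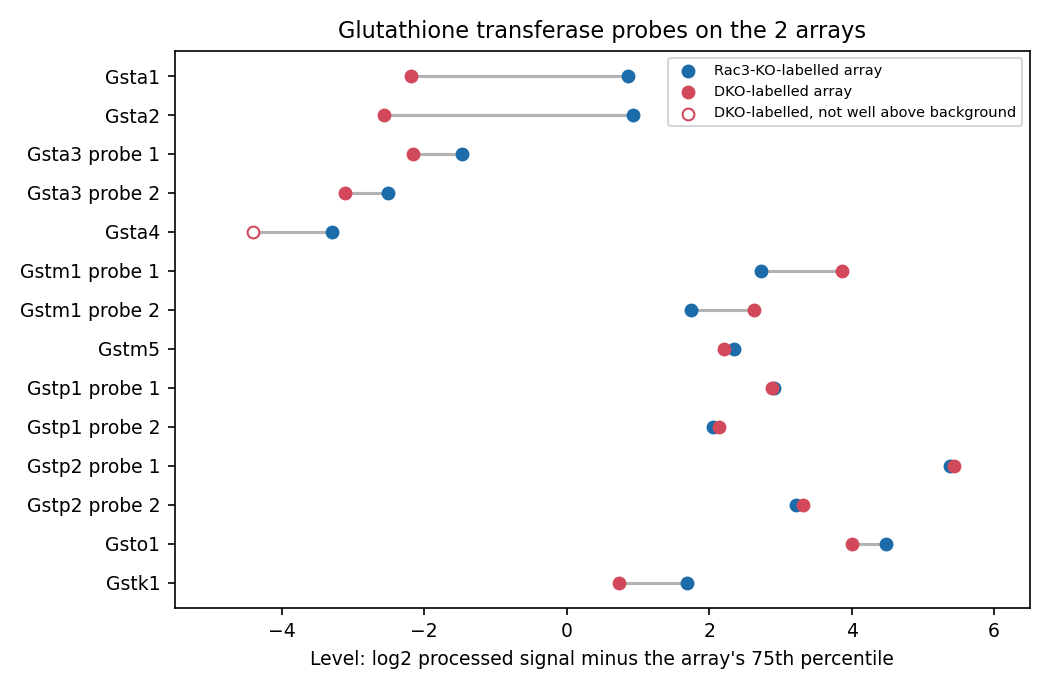
Level of each of the 14 probes (log2 processed signal minus the array's 75th percentile) on the Rac3-KO-labelled array (blue) and the DKO-labelled array (red), with 1 array per genotype and a line joining the values of a probe; the open point was not well above background. Gsta1 and Gsta2 have the longest lines, both to lower levels on the DKO-labelled array, while the Gstp1 and Gstp2 points nearly coincide; levels of different probes are not comparable with each other.

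**Figure D2:**
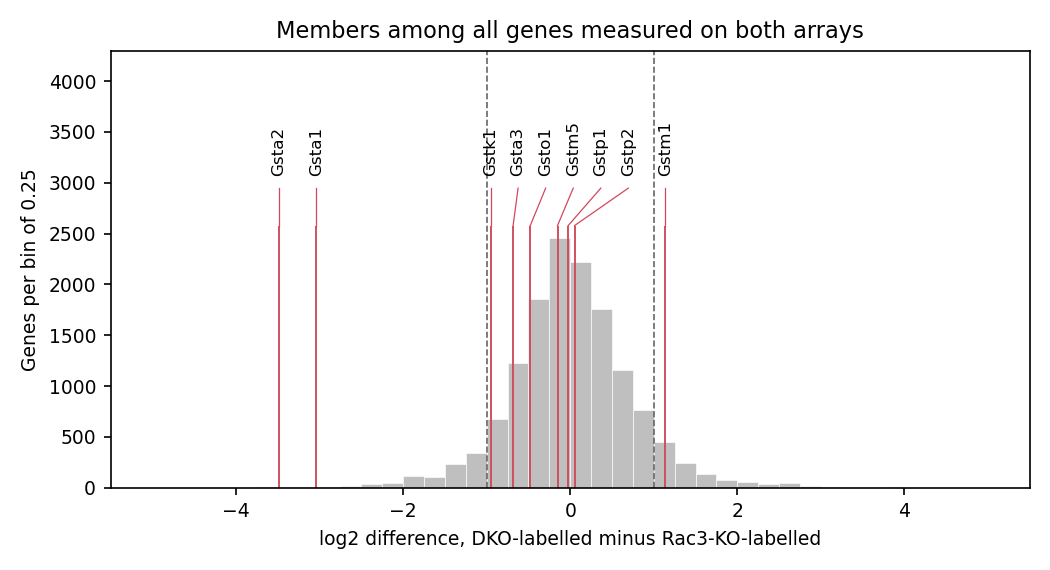
Number of genes per bin of 0.25 in log2 difference (DKO-labelled minus Rac3-KO-labelled) for the 14145 genes measured on both arrays, with red lines at the 9 measured members and dashed lines at 2-fold either way. Gsta1 and Gsta2 lie in the far lower tail, Gstm1 just above the upper dashed line (at -0.93 on the spike-in scale) and the other members between the dashed lines.

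Gsta1 and Gsta2 encode alpha-class subunits that conjugate electrophiles and also reduce lipid hydroperoxides, and both are classic genes induced by antioxidants in liver. The Gsta1 probe read 1278 in Rac3-KO-labelled RNA and 78.1 in DKO-labelled RNA as processed signal. In scaled terms its level went from 0.86 to -2.18, a difference of -3.04 (signal error 0.22), or 8.22-fold lower. The Gsta2 probe gave 1341 and 59.9, with scaled levels of 0.93 and -2.56. Its difference was -3.49 (signal error 0.23), or 11.2-fold lower. Both probes thus lay above the 75th percentile on the Rac3-KO-labelled array and well below it on the other, where the lowest signal well above background was 20.1. Among the 14145 measured genes, Gsta2 had the 11th lowest difference and Gsta1 the 20th lowest. The 2 genes differed from each other by 0.45, with a combined error of 0.32. With normexp background correction the differences were smaller, -2.18 for Gsta1 and -2.50 for Gsta2.

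Gm10639, a neighbouring copy of Gsta1 that is not among the 10 members, had a comparable difference. Its brighter probe gave signals of 2014 and 101 and a difference of -3.32 (signal error 0.21), the 14th lowest of all measured genes. Its other probe gave 177 on the Rac3-KO-labelled array and was not well above background in the DKO-labelled sample. In chromosome order, the alpha cluster on chromosome 9 runs Gsta4, Gsta1, Gm3776, Gm10639 and Gsta2. No probe carried a RefSeq accession of Gm3776. Probe sequences were not used here. Whether the probes of Gsta1, Gm10639 and Gsta2 read different transcripts or partly the same ones therefore could not be determined. The gene counts in this text take each of these genes separately, so they are not counts of independent signals.

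The 250 bases before the RefSeq gene starts show how alike these copies are in that stretch. They are printed for the genes with the lowest differences, 5′ to 3′ on the gene's strand. These windows lie outside the transcripts, so they do not show whether the probes read the same RNA. They come from RefSeq in the GRCm38.p6 build, at chr9:78230419-78230668 on the plus strand for Gsta1, chr9:78289678-78289927 on the plus strand for Gm10639 and chr9:78347146-78347395 on the minus strand for Gsta2. Capitals mark matches to TGANNNNGC, a loose pattern for the core of the antioxidant response element, on either strand.
Gsta1: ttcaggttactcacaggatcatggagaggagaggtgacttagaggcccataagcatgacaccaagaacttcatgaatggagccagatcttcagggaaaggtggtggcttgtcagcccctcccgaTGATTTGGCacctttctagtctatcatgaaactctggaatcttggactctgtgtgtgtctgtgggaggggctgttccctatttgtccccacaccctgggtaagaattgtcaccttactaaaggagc
Gm10639: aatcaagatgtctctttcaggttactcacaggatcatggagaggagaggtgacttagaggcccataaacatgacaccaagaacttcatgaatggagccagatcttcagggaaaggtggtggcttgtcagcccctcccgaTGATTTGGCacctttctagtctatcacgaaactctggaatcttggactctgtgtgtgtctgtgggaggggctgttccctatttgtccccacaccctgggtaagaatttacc
Gsta2: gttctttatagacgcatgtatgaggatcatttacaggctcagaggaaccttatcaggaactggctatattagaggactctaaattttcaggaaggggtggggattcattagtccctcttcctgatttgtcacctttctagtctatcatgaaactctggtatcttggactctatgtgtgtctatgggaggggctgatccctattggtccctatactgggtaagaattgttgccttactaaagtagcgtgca

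In a global alignment, 87.9% of aligned positions were identical between the Gsta1 and Gm10639 windows and 89.7% between Gsta1 and Gm3776. Between Gsta1 and Gsta2 the share was 71.4%, and between Gsta1 and Gsta3, which lies on chromosome 1, it was 54.8%. Gsta1 and Gm10639 each had 1 match to TGANNNNGC, with the same letters, and Gsta2 had none in this window. The motif occurs in 35.2% of 32851 promoter windows of the same length, so a match in any single window is common. Of the 9 members with a promoter sequence, 5 had a match: Gsta1, Gsta3, Gstm5, Gstp1 and Gstp2.

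Gsta3, an alpha gene known in mice for conjugating the reactive form of aflatoxin, was lower by much less. Its brighter probe read 255 in Rac3-KO-labelled RNA and 79.9 in DKO-labelled RNA, with scaled levels of -1.47 and -2.15. The difference was -0.68 (signal error 0.22), or 1.61-fold lower. The dimmer probe gave 124 and 41.2 and a difference of -0.60, so both probes pointed the same way and lay 0.08 apart. With normexp the brighter probe's difference was -0.44.

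Gsta4, whose product conjugates the lipid peroxidation product hydroxynonenal, was dim and cleared the background limit in the Rac3-KO-labelled sample alone, as did 4.26% of all named genes. Its probe was spotted 10 times on each array, and 9 spots were used after 1 outlier was left out on each. On the Rac3-KO-labelled array the 9 spots ranged from 59.8 to 82.7, with a median of 72.0, and 9 of 9 cleared background. On the DKO-labelled array they ranged from 11.4 to 21.5, with a median of 17.4, and 0 of 9 cleared background. The spots of the arrays did not overlap, but they are technical repeats of the same RNA. After scaling, the level went from -3.30 to -4.40, below the DKO-labelled array's lowest level well above background of -4.14. Against that limit the DKO-labelled level of Gsta4 was at least 1.80-fold lower. With normexp the direction was lost, with a difference of 0.12.

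The mu genes did not share the pattern of the alpha genes on these arrays. Gstm1, a broadly expressed mu-class enzyme, had signals of 4680.4 and 5173 at its brighter probe and scaled levels of 2.73 and 3.87. Its difference was 1.14 (signal error 0.20), or 2.20-fold higher on the DKO-labelled array, but -0.93 on the spike-in scale. The other Gstm1 probe gave 2360.1 and 2199.98 and a scaled difference of 0.89, or 1.85-fold, under the 2-fold threshold. Before scaling, both probes had about the same signal on the 2 arrays, while most genes had less on the DKO-labelled array. From the highest, Gstm1 ranked 817th of the 14145 genes. Gstm5, a mu gene known from brain and testis, gave 3609 and 1633, with scaled levels of 2.36 and 2.20. The Gstm5 difference was -0.15 (signal error 0.20). Gstm1 and Gstm5 differed from each other by 1.29, with a combined error of 0.29.

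The mu genes are 7 neighbours on chromosome 3, and all 7 were well above background on both arrays. In chromosome order the differences were -0.15 for Gstm5, -0.14 for Gstm7, 0.15 for Gstm6, 0.74 for Gstm3, 0.45 for Gstm2, 1.14 for Gstm1 and 0.56 for Gstm4. At each gene's brightest probe, the first 3 in this order lay within their signal errors of 0.20, 0.32 and 0.21. The other 4 exceeded 2 times theirs. At their further probes Gstm2 and Gstm4 did not, the other Gstm4 probe being at 0.35 (signal error 0.21). Further Gstm6 probes differed by -0.11 and -0.50 (signal errors 0.22 and 0.38). On the spike-in scale all of these values are lower by the same amount, and Gstm1 is below 0. The brightest of these probes belonged to Gstm2, with signals of 14548 and 9960 and further probes at 0.26 and 0.20. A dim second Gstm3 probe, with 35.9 and 4.42, went the other way and was not well above background in the DKO-labelled sample. The mu copies are alike in coding sequence, and a probe may read a neighbour.

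**Figure D3:**
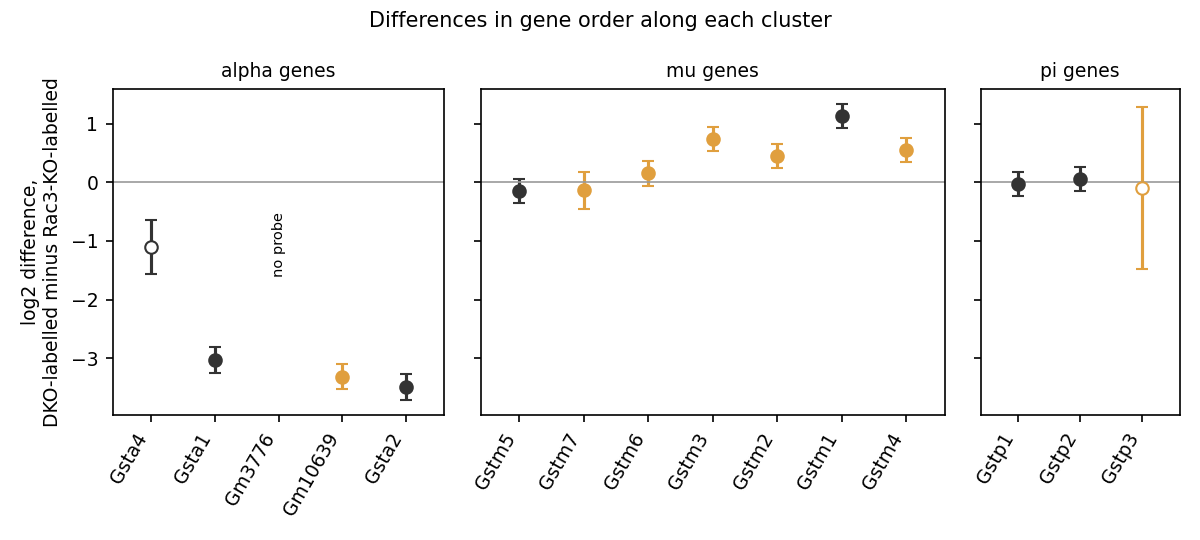
Log2 difference (DKO-labelled minus Rac3-KO-labelled) of the alpha, mu and pi genes in their order along the chromosome, at each gene's brightest probe, with the software's signal error as bars; black marks members, orange their neighbouring copies and open points genes not well above background on both arrays. The alpha genes Gsta1, Gm10639 and Gsta2 lie between -3.49 and -3.04, the mu genes between -0.15 and 1.14 (all lower on the spike-in scale, where Gstm1 falls below 0), and Gstp1 and Gstp2 near 0 (-2.09 and -2.02 on the spike-in scale).

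The pi genes were bright, and after percentile scaling they were nearly level between the arrays, while on the spike-in scale Gstp1 differed by -2.09 and Gstp2 by -2.02. Gstp1 and Gstp2 encode pi-class subunits, abundant in epithelia, that also bind the stress kinase JNK, and the 2 genes are near-identical copies. Gstp2 gave signals of 29401 and 15323 at its brighter probe, with scaled levels of 5.38 and 5.43 and a difference of 0.05. Its other probe gave 6537 and 3517, a difference of 0.10. For Gstp1 the signals were 5286 and 2614 at the brighter probe, with scaled levels of 2.91 and 2.88 and a difference of -0.02. The further Gstp1 probe, with 2922 and 1554, differed by 0.08. The signal error was 0.20 for all 4 probes, so each difference was smaller than its error. That does not establish that the levels were equal. Gstp3, the remaining neighbour, was not well above background on either array.

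The windows before Gstp1 and Gstp2 are printed because they carry the TGANNNNGC pattern together with the AP-1 site TGAGTCA. That of Gstm1, the member that was higher after percentile scaling, is printed beside them and holds neither. The windows of Gsta2, Gsto1 and Gstk1, which were lower, hold neither as well, and that of Gstm5 holds both. The GRCm38.p6 positions are chr19:4037913-4038162 for Gstp1, chr19:4042222-4042471 for Gstp2 and chr3:108017974-108018223 for Gstm1, all on the minus strand, with the first of 2 entries used for Gstm1. Capitals mark TGANNNNGC or TGAGTCA on either strand.
Gstp1: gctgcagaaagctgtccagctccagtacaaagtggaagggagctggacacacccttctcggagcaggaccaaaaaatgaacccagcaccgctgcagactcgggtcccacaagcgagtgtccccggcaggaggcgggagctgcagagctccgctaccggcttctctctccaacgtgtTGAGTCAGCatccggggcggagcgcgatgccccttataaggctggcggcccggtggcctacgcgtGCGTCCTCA
Gstp2: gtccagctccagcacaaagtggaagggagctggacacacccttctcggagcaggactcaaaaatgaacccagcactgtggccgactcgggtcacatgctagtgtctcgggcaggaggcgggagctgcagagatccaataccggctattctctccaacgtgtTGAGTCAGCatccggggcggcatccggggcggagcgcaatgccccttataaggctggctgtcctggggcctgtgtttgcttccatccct
Gstm1: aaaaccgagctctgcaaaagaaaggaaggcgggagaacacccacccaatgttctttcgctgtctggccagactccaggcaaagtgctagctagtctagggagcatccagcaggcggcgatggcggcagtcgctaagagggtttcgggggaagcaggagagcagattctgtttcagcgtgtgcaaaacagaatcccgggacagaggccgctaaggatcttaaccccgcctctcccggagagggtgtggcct

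The Gstp1 and Gstp2 windows were identical at 78.5% of aligned positions, and both hold TGAGTCAGC, in which the motifs overlap. TGAGTCA or its reverse complement occurs in 4.46% of the 32851 windows and in 3 of the 9 members with a sequence, Gstm5, Gstp1 and Gstp2. A match is only a run of letters in this window and does not show that a factor bound there.

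Gsto1 and Gstk1 belong to classes apart from the rest. Gsto1, an omega enzyme that reduces dehydroascorbate and protein-bound glutathione, gave 15803 and 5704, with scaled levels of 4.49 and 4.01. The Gsto1 difference was -0.48 (signal error 0.20), or 1.39-fold lower. Gsto2, its neighbour, differed by -0.33 (signal error 0.30). Gstk1, the kappa enzyme of mitochondria and peroxisomes, gave 2282 and 592, with scaled levels of 1.69 and 0.74. At -0.95 (signal error 0.20), Gstk1 was 1.94-fold lower, just inside the 2-fold threshold, and -1.05 when arrays were scaled to their medians. Each of these genes has a single probe.

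Of 22 measured genes of further transferases and related membrane or chloride-channel proteins, 3 differed downwards and 2 upwards by 2-fold or more (median 0.19). Among all measured genes, 6.62% were that much lower and 7.71% higher. Those lower were Gm10639, Mgst2 (a microsomal transferase) at -1.77 and Clic3 (an intracellular chloride channel of the transferase fold) at -1.67. Alox5ap and Ltc4s, which act in leukotriene synthesis, were higher at 1.21 and 1.09, beside leukocyte markers with a median of 0.99. The part of leukocytes in these values was not tested. Of 28 genes of glutathione supply and recycling, 4 lay below the 2-fold limit and 1 above it (median -0.11), beside the same 6.62% and 7.71%. Ggt6, of the gamma-glutamyltransferase family, differed by -2.78. Cbs and Cth, of the route from homocysteine to cysteine, differed by -1.62 and -1.15, and Ggct, a gamma-glutamylcyclotransferase, by -1.41. Cth was named after its value was seen. Chac1, which degrades glutathione, was higher at 1.43. Gclc and Gclm, the subunits of the rate-limiting enzyme of glutathione synthesis, lay within 2-fold at -0.37 and 0.43, and were also named after their values were seen. Ggt1 cleared background in the Rac3-KO-labelled sample alone and was at least 1.21-fold lower.

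Of 31 measured NRF2 pathway genes 4 lay above the 2-fold limit and 0 below it (median 0.12), where 7.71% and 6.62% of all genes did. Hmox1, the inducible haem oxygenase, differed by 2.80, with signals of 11316 and 39618. Ugdh, which makes UDP-glucuronate, differed by 1.41, Aox1, an aldehyde oxidase, by 1.04 and Srxn1, the sulfiredoxin, by 1.03. Nqo1, a quinone reductase often used to read NRF2 activity, had the lowest value at -0.84. Hmox1 is also expressed by macrophages, and the macrophage and other leukocyte markers had a median of 0.99 and a highest value of 2.19. The part of these cells in the Hmox1 value was not tested. Among 19 glutathione peroxidases, peroxiredoxins and thioredoxin genes 2 were higher, Gpx3 (a secreted peroxidase) at 1.65 and Srxn1, and 0 were at least 2-fold lower (median 0.11), the lowest being Prdx1 at -0.66.

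Of 17 other genes of xenobiotic metabolism 3 lay below the 2-fold limit and 5 above it (median 0.47), where 6.62% and 7.71% of all genes did. The cytochrome P450 gene Cyp2b10 differed by -4.37, Aldh3b2 by -2.20 and the cholesterol sulfotransferase gene Sult2b1 by -1.97. Cyp1b1, Aldh1a1 and Sult1a1 were higher at 1.82, 1.29 and 1.22, and so were Akr1c18 and Aldh3a1 at 1.12 and 1.04, the last pair named after their values were seen. Cyp2b19 cleared background in the Rac3-KO-labelled sample alone and was at least 1.54-fold lower, and Nr1i3 likewise at least 1.32-fold. On the spike-in scale the values in these lists are lower by about 2.07.

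**Figure D4:**
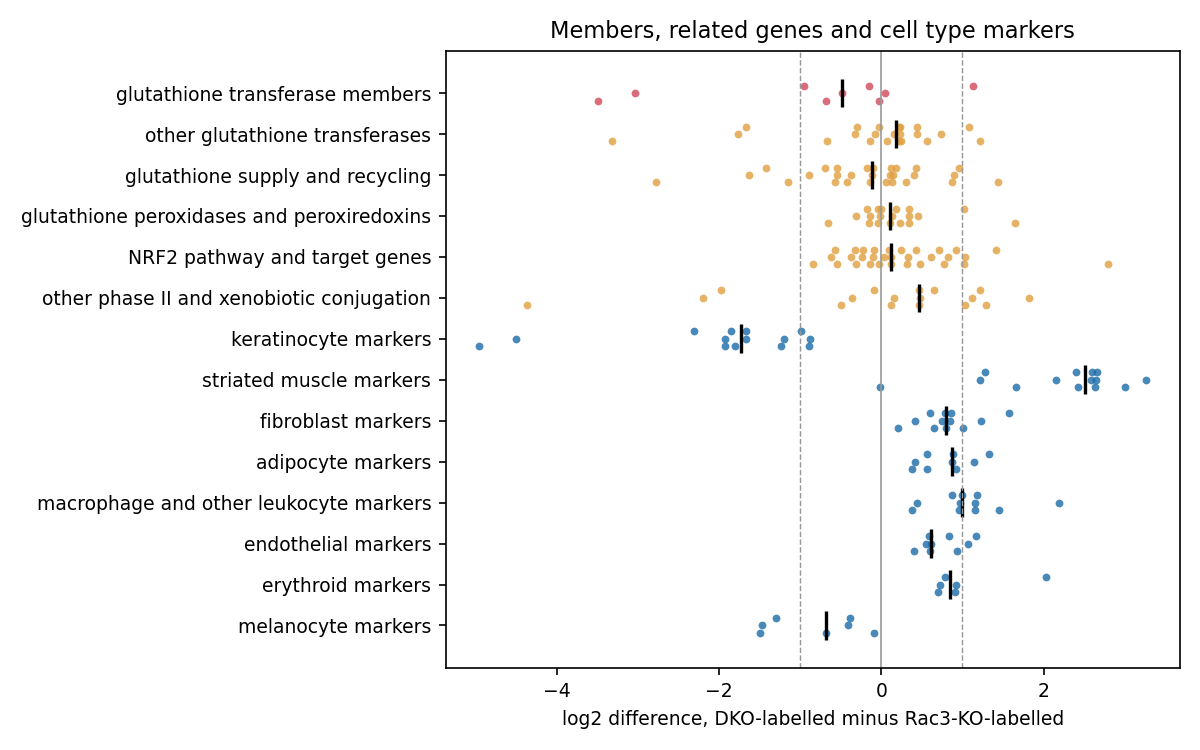
Log2 difference (DKO-labelled minus Rac3-KO-labelled) of each gene measured on both arrays, for the members (red), related gene lists (orange) and cell type markers (blue), with a black bar at each median and dashed lines at 2-fold. The members have a median of -0.48, between the keratinocyte markers at -1.73 and the fibroblast markers at 0.79, and Gsta1 and Gsta2 lie to the left of 12 of the 14 keratinocyte markers.

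The values of the cell type markers were as follows. Of 14 measured keratinocyte markers 11 lay below the 2-fold limit and 0 above it, the median being -1.73, in a range from -4.95 to -0.87. Krt5 differed by -1.20 and Krt15, also of basal cells, by -2.31. The lower end came from Krt1 and Krt10, keratins of differentiating cells, at -4.95 and -4.50, which were named after their values were seen. The other 12 markers lay at -2.31 or higher. Gsta1 and Gsta2 were thus each lower than 12 of the 14 and lay between those 12 and the lowest pair. Those 12 include Lor and Krtdap, also of differentiating cells, at -1.23 and -1.92, both named after their values were seen. Gstk1 lay at the upper end of the range, with 12 markers lower and 2 higher, and the other measured members lay above it. Melanocyte markers had a median of -0.68, with 3 of 7 at least 2-fold lower, and their brightest genes Dct and Pmel differed by -1.499 and -0.68. Muscle markers were at least 2-fold higher for 13 of 14, with a median of 2.51, and the bright genes Tnnc2 and Tnni2 differed by 2.40 and 2.66. All 12 fibroblast markers were above 0, with a median of 0.79 (0.85 for Col1a2 and 0.79 for Col3a1). All 9 measured adipocyte markers were above 0 as well, with a median of 0.88 (0.38 for Fabp4 and 0.88 for Cfd), as were all 11 leukocyte markers, with a median of 0.99 (1.45 for Csf1r and 1.16 for Itgam). Endothelial markers had a median of 0.62 (1.17 for Kdr and 1.07 for Cldn5) and erythroid markers 0.84 (0.91 for Hba-a2 and 0.72 for Hba-a1). On the spike-in scale these values too are lower by about 2.07. Of the genes named in this paragraph, Tnnc2 and Tnni2 alone then remain above 0. The muscle median stays above 0 as well, but some muscle markers, such as Myh8 at 1.66 before this shift, fall below it. The leukocyte marker Cd163, at 2.19 before the shift, stays above 0. Myh8 and Cd163 were named after their values were seen.

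Summed marker levels, in multiples of the 75th percentile, went from 483 to 2598 for muscle, from 1683 to 3035 for fibroblasts and from 71.2 to 161 for leukocytes. Of 8 liver markers, 3 were measured on both arrays. Apoa2, an apolipoprotein gene, was bright, with signals of 2579 and 1948 and a difference of 0.59. Cyp2e1 gave 169 and 69.8 and differed by -0.28, and Serpina1a gave 27.6 and 27.2 and differed by 0.97. Albumin (Alb) gave 39.7 and 17.8 and cleared background in the Rac3-KO-labelled sample alone. Its at-least fold was 0.99, so these values do not show a lower level in the DKO-labelled sample. Ahsg, with signals of 23.9 and 23.9, cleared background in the DKO-labelled sample alone and was at least 1.99-fold higher there after scaling. Apoa1, Ttr and Fgb cleared background in neither. The part of the keratinocyte share in the Gsta1, Gsta2 and Gstk1 values, and of the other tissues in the Gstm1 value, was not tested.

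**Figure D5:**
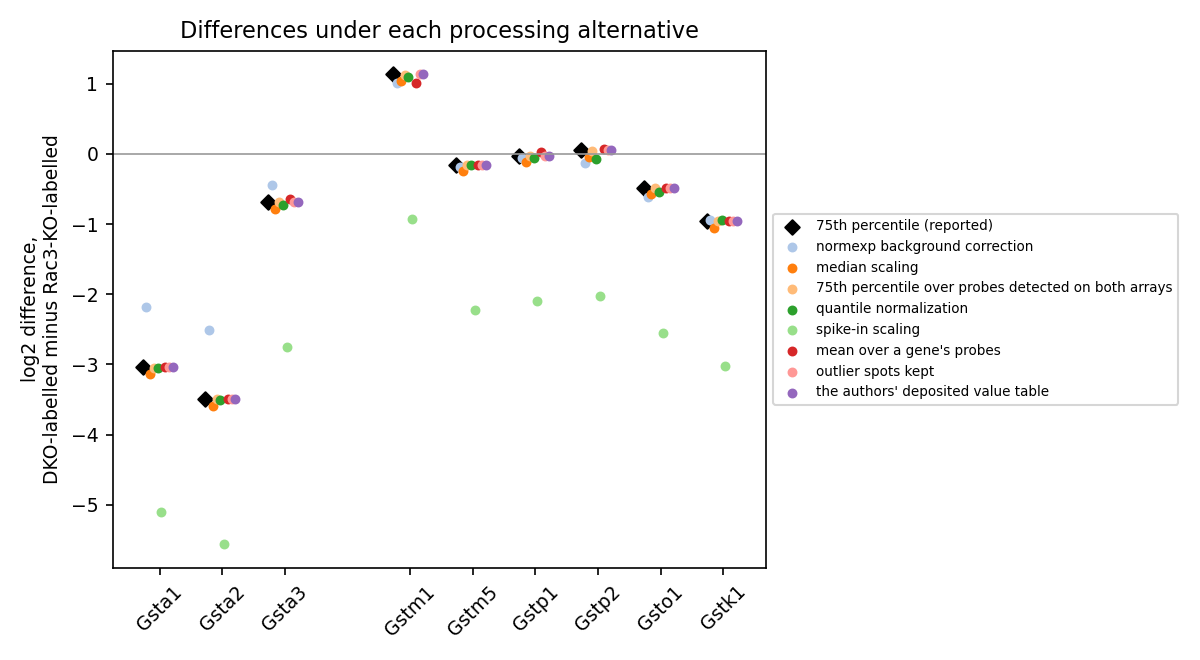
Log2 difference (DKO-labelled minus Rac3-KO-labelled) of the 9 members measured on both arrays. Black diamonds mark the reported 75th percentile scaling, and coloured points each alternative other than the detection filters. Spike-in scaling moves all 9 down by about 2.07 and takes Gstm1 from 1.14 to -0.93, and normexp moves Gsta1 and Gsta2 towards 0. The other alternatives stay close to the diamonds. That was fixed in advance for the deposited values and kept outlier spots, and, for genes with 1 probe, for the mean over probes.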

How the data were processed

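RNA of 2 samples, 1 per genotype, was hybridised to 1-colour (Cy3) Agilent arrays, and groups follow the genotype labels. Per the file headers, the deposited scanner files hold spot intensity extracted with Feature Extraction 10.10.1.1, and background was subtracted and spatial and multiplicative trends were fitted within each array; the submitters' processing notes name version 9.1. The arrays shared a slide and a scan time. The authors' deposited log2 value table was found to be log2 of the processed signal less 1 constant per array for 100% of probes spotted a single time (tolerance 0.001); it has column medians of -3.72 and -3.62, and served as an alternative.

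Control and outlier spots were left out, spots of a probe averaged as log2 intensity, and each array's 75th percentile subtracted, which left 55678 probes, of which 56.9% and 52.9% were well above background, with no saturated spot. Probe accessions were matched without versions to the GRCm38.p6 RefSeq table: 26580 probes received a name and 29098 stayed unnamed. Since the design of the array uses another build, that table served for names and gene order only, and promoter sequences were found by symbol. The probe with the highest mean level represented a gene; the other probes of members are given as well. A gene counted as measured if this probe cleared background in both samples; one detected on a single array received an at-least fold, taking as limit the dim probe or, if higher, the array's lowest value that cleared background. The members and lists were chosen with earlier results of these data known. All members were named; of each list, up to 3 genes each way at least 2-fold apart by size, or the furthest each way, up to 2 detected on a single array, and the 2 brightest markers. Alternatives were normexp (limma 3.58.1, offset 50, on the median spot signal, since no mean is used here), other scalings, filters, probe rules and fold thresholds. The level steps were tested on simulated data. Motifs and alignments used Python 3.11.15 and Biopython 1.88.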

Additional observations from a re-analysis of the deposited data

How the results depend on the processing

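Scaling to the spike-in probes changed the most: 0 members then lay above the 2-fold limit and 8 below it. Of all 14145 measured genes, 14 lay above that limit and 13196 below it under this scaling. The median of the members was -2.55, and Gstm1 turned from 1.14 to -0.93. The median of all genes moved from -0.01 to -2.08, and relative to that median the members stood at -0.47 under both scalings. This had to be so, since spike-in scaling shifts all genes by the same amount. The stricter filter asked for 4 times the lowest signal well above background and left 6 members, with a median of -0.0879. Of these members 0 were at least 2-fold lower, beside 658 of the 12114 genes it left. Gsta1, Gsta2 and Gsta3, with DKO signals of 78.1, 59.9 and 79.9, fell under its limit of 80.3. At a 1.5-fold threshold 4 members were lower, against 16.5% of all genes, and at a 3-fold threshold 0 were higher, against 2.29%. With median scaling 43.6% of the genes at least 2-fold apart were higher, in place of 53.8%. Then 3 members were at least 2-fold lower, with Gstk1 added, beside 1152 of all 14145 genes. Normexp moved Gsta1, Gsta2 and Gsta3 by more than their signal error, and Gsta4, dim on both arrays, from -1.10 to 0.12. The small pi values had no settled sign: Gstp2, at 0.05, was -0.13 with normexp, -0.04 with median scaling, -0.08 with quantile normalization and -2.02 with spike-in scaling, and Gstp1, at -0.02, was 0.03 as the mean over its probes. Gsta1, Gsta2, Gsta3, Gstm5, Gsto1 and Gstk1 were below 0 under every alternative that measured them. The detection filters cannot change a gene's value, and the mean over probes cannot change that of a gene with 1 probe. The deposited values and kept outlier spots could hardly change these genes, whose probes had 1 spot each. The number of arrays, 1 per genotype, limits every value, and no paired analysis was possible because there are no replicates.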
